A study of Homo sapiens with 20 samples.

Results

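The EGR, FOS and JUN immediate early genes are 10 genes: the zinc finger factors EGR1, EGR2 and EGR3, the FOS family members FOS, FOSB, FOSL1 and FOSL2, and the JUN family members JUN, JUNB and JUND. They were taken from the joint expression table as the rows whose Ensembl gene identifier, without its version, belongs to one of these symbols, which gave all 10 of 60483 listed genes. The study treated human multiple myeloma cell lines, which are malignant plasma cells kept in culture, with the solvent DMSO or with indirubin-3'-monoxime (I3MO), a small molecule known as an inhibitor of kinases such as GSK3 and cyclin-dependent kinases. RNA was sequenced from 10 groups of 2 libraries, 20 in all: ANBL6, its bortezomib-resistant form (ANBL6BR), ARP1, RPMI8226 and U266, each in DMSO and in I3MO. All lines other than ANBL6BR are labelled wild type, and ANBL6BR differs from ANBL6 by its resistance to bortezomib, a proteasome inhibitor. I3MO was given at 5 µM to the ANBL6 pair and at 10 µM to U266, RPMI8226 and ARP1. Dose and line therefore cannot be told apart between those sets. The length of treatment is not given in the sources used here.

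Immediate early genes are the genes that cells switch on within minutes of a signal, from factors already present, so that no new protein has to be made first. FOS and EGR1 are textbook examples: kinases of the ERK pathway phosphorylate ternary complex factors that sit with the factor SRF on CArG boxes in their promoters, and CREB factors bind cyclic AMP response elements close to the start. FOS proteins cannot pair with each other and bind DNA as dimers with a JUN protein, the AP-1 factor, while JUN proteins also pair among themselves. The messenger RNAs of FOS, JUNB and EGR1 are short-lived. In plasma cells, JUNB is also known as a gene that interleukin 6 induces through STAT3.

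Levels are FPKM (fragments per kilobase of a gene and per M counted fragments). Differences are on the scale log2(FPKM + 1), which understates changes of genes under about 1 FPKM. A gene is said to have risen or fallen where the limma test over all 15687 tested genes gave a Benjamini-Hochberg adjusted p under 0.05, two-sided. Whether the libraries of 2 groups overlap is given as a description only. The share of all genes without overlap was not computed. With 2 libraries a group, small differences can also show none, as FOSL2 did in ANBL6 (adjusted p = 0.97 in limma). Genes with at least 1 FPKM in at least 2 libraries were tested, and 7 of the 10 members passed: EGR1, FOS, FOSL1, FOSL2, JUN, JUNB and JUND. EGR2, EGR3 and FOSB were under 1 FPKM in every library. The libraries held 12.11 to 20.31 M fragments each. Of the defining markers, 8 of 9 plasma cell markers reached 1 FPKM in both libraries of every group. XBP1 was listed at 0 in all libraries, which cannot be read as absence of expression. The summed FPKM of 5 markers each was at most 2.29 for B cells, 1.07 for T cells, 4.89 for myeloid, 4.63 for stromal and 5.99 for erythroid cells. In DMSO the myeloid sum was 4.74 to 4.89 in ANBL6 and 0.169 to 0.266 in ANBL6BR, and the erythroid sum 0.286 in ANBL6 and 4.37 to 5.99 in ANBL6BR. The stromal sum in U266 was 2.34 to 2.40 in DMSO and 2.92 to 4.63 in I3MO. In each of these 3 lists 1 gene was tested: ITGAM was lower (-2.24) and HBB higher (2.56) in ANBL6BR than in ANBL6, HBB fell in U266 (-0.68) and COL1A1 rose in U266 (0.59). With I3MO, ITGAM fell in ANBL6 (-0.686) and RPMI8226 (-0.645), and its response in ANBL6BR differed from that in ANBL6 (0.574). The 1 tested B cell gene fell in ARP1 (-0.413). The summed plasma cell markers differed with some of the contrasts, at 499 to 500 FPKM in U266 in DMSO against 212 to 223 in I3MO, and at 237 and 619 in the DMSO libraries of ANBL6BR. The part of these marker levels in the results was not tested. The I3MO libraries of U266 (r = 0.962 across genes) and the DMSO libraries of ANBL6BR (0.97) stood further apart than those of the other groups (0.978 to 0.989). The I3MO libraries of ANBL6 listed 32668 and 28419 genes above 0 against 22138 and 22710 in DMSO. The labels do not say that the 2 libraries of a group came from separate cultures, so the p-values measure the spread between libraries, which may be technical. RNA from a culture also cannot separate fewer expressing cells from less RNA per cell.

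With I3MO, the 7 tested members gave a different set of calls in each line. In U266, 4 fell (EGR1, FOS, JUN and JUNB) and FOSL2 rose, 5 calls of 7 against 26.2% of all tested genes called in that line. In ANBL6BR, FOS, JUN and JUNB fell (3 of 7, against 18.4%), and in ANBL6, FOS and JUNB fell (2 of 7, against 7.97%). The counts of these 3 lines include FOS, which passed the filter on low values only through DMSO libraries, which favours falls. In RPMI8226, JUN rose while FOSL1 and JUND fell (3 of 7, against 14.8%), and in ARP1 only FOSL2 passed the test, upwards (1 of 7, against 37.0%). The test of unequal responses in the 5 lines called 6 of 7 members, all but JUND, against 44.5% of genes, and the same test within ARP1, RPMI8226 and U266, which had 1 dose, also called those 6, against 38.9%. The FOSL1 calls in these tests held in 23 of 30 alternatives over the 5 lines (adjusted p of up to 0.209 in limma) and in 19 of 22 over the 3 lines (up to 0.171). The median log2 difference of the 7 was -0.62 in ANBL6, -0.39 in ANBL6BR, 0.03 in ARP1, -0.23 in RPMI8226 and -0.72 in U266, and that of all tested genes lay between -0.02 and 0.03 in every line.

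**Figure D1:**
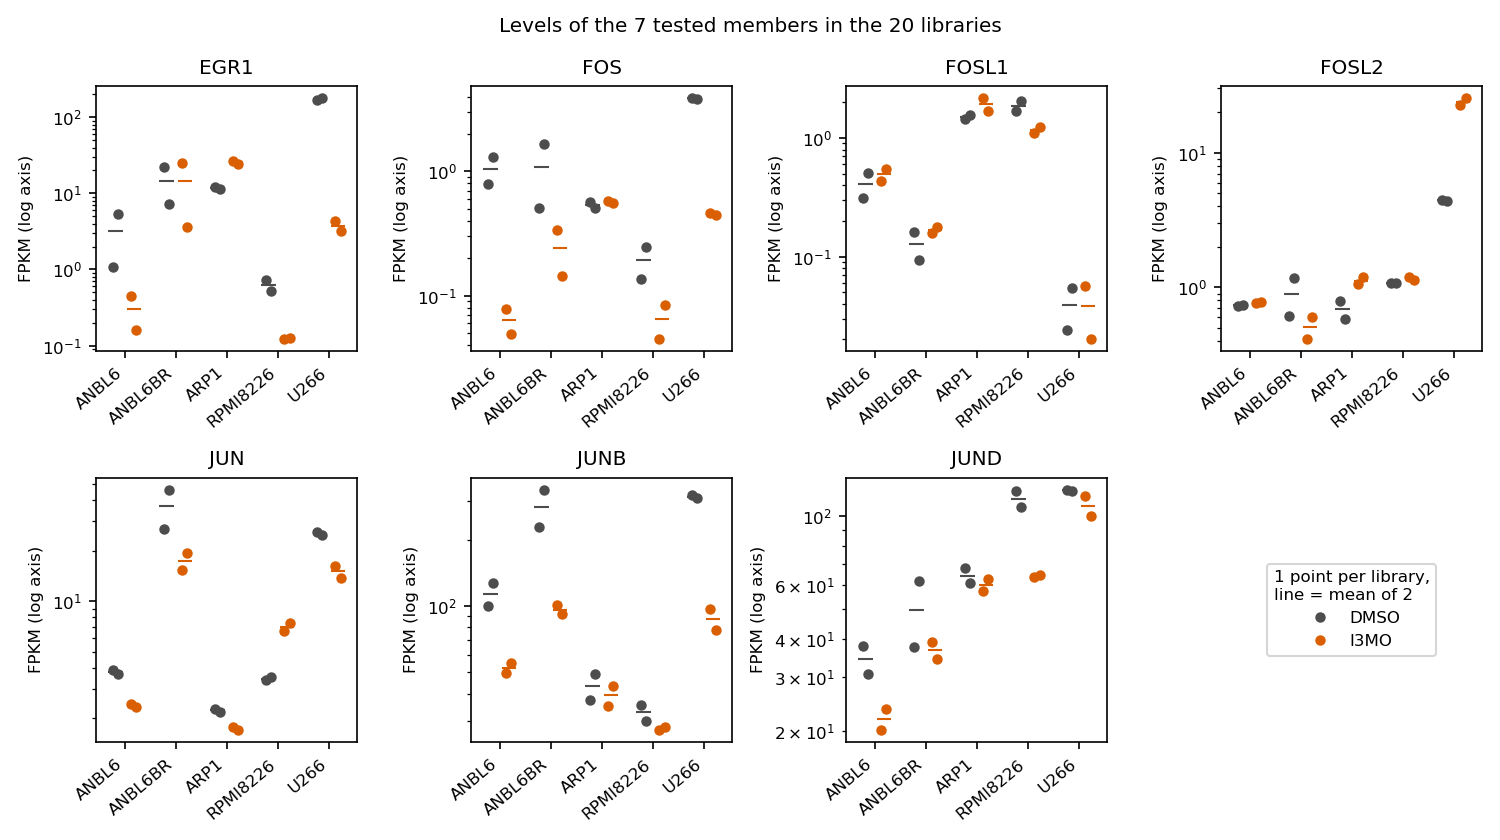
FPKM of the 7 tested members (log axis) in each of the 20 libraries, by cell line, with DMSO in grey and I3MO in orange; each point is 1 library and each line the mean of 2. In U266, the DMSO libraries of EGR1 (169 and 179 FPKM) lie far above the I3MO libraries (4.27 and 3.23), whereas FOSL2 shows the opposite order.

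**Figure D2:**
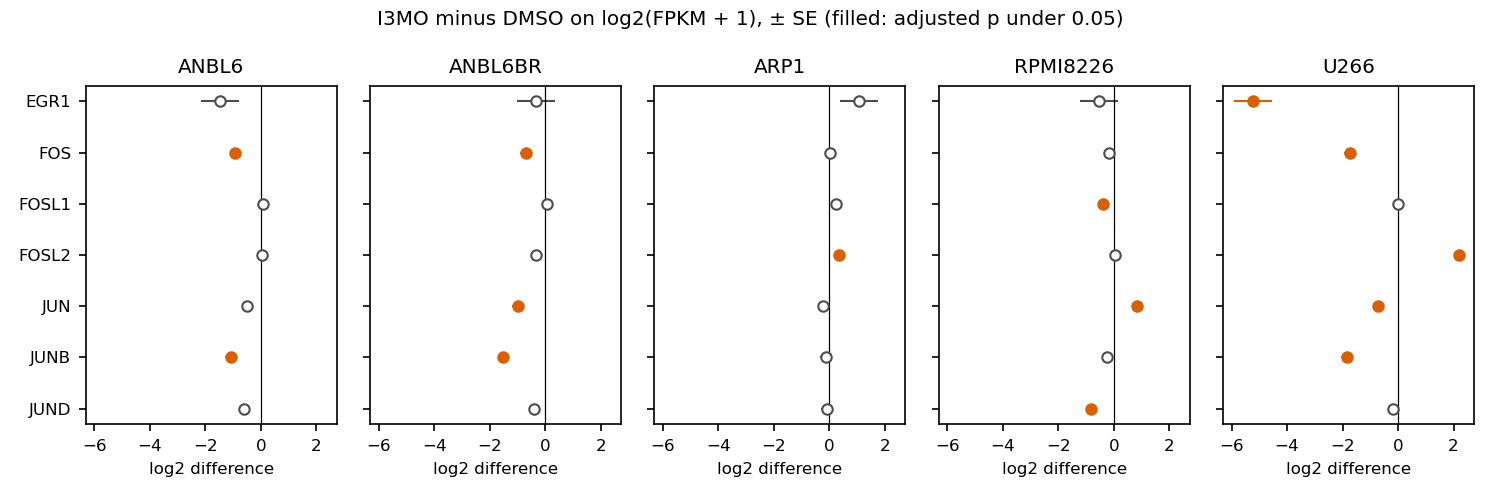
Difference between I3MO and DMSO on the log2(FPKM + 1) scale for the 7 tested members in each line, with ± 1 SE; filled orange points passed the test at an adjusted p under 0.05. EGR1 has the widest bars (SE 0.685), and U266 has both the lowest value (EGR1, -5.21) and the highest (FOSL2, 2.20).

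EGR1 encodes a zinc finger factor that binds GC-rich sites and induces its own corepressor NAB2. The gene lies on chromosome 5 (hg38, 138465490 to 138469315, plus strand). In U266, EGR1 stood at 169 and 179 FPKM in DMSO and 4.27 and 3.23 in I3MO, a 46.4-fold ratio of the means and a log2 difference of -5.21 ± 0.685 SE, adjusted p = 0.000122. Both DMSO libraries were far above both I3MO libraries, and EGR1 fell in U266 also when any 1 library was left out (differences of -5.37 to -5.05). In ARP1 the values went the other way, 12.3 and 11.3 in DMSO and 27 and 24.6 in I3MO, without overlap. That difference (1.07 ± 0.685 SE, adjusted p = 0.264) did not pass the test, which uses 1 spread for all 20 libraries. With the spread of the 4 ARP1 libraries alone its SE was 0.0758 and its adjusted p = 0.0505 in limma, the lowest over its alternatives (up to 0.595). The shared spread of EGR1 is wide where the ANBL6 and ANBL6BR replicates disagree. In ANBL6BR the libraries read 22.3 and 7.18 in DMSO and 25.3 and 3.62 in I3MO, so the groups overlapped. The difference of -0.33 ± 0.685 turned to 0.43 without DMSO replicate 1 and to 0.93 without I3MO replicate 2. In ANBL6 they read 1.08 and 5.35 in DMSO and 0.452 and 0.158 in I3MO, a difference of -1.49 ± 0.685 SE, adjusted p = 0.22. RPMI8226 held the least EGR1, 0.73 and 0.525 in DMSO and 0.124 and 0.126 in I3MO, where the I3MO libraries were lower without a call (adjusted p = 0.754 in limma). The responses of EGR1 were unequal over the 5 lines (F = 12, adjusted p = 0.00292) and over the 3 lines at 10 µM (F = 22.7, adjusted p = 0.00108).

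EGR2 and EGR3, relatives of EGR1 that bind the same kind of site, were followed by the fragments behind their FPKM, which were recovered from the steps between the values. EGR2 had 50 and 41 fragments in the U266 DMSO libraries and 12 and 7 in the I3MO libraries, and 0 to 5 in each library of the other lines. So EGR2, like EGR1, was highest in U266 in DMSO and lower there in I3MO, without overlap. When the filter on low values was left out, EGR2 fell in U266 (adjusted p = 2.95e-05 in limma, and 0.00018 when 0.1 in place of 1 was added to FPKM). EGR3 had at most 5 fragments in any library, too few to compare groups. A count of 0 fragments allows up to 3, for counting error only.

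**Figure D3:**
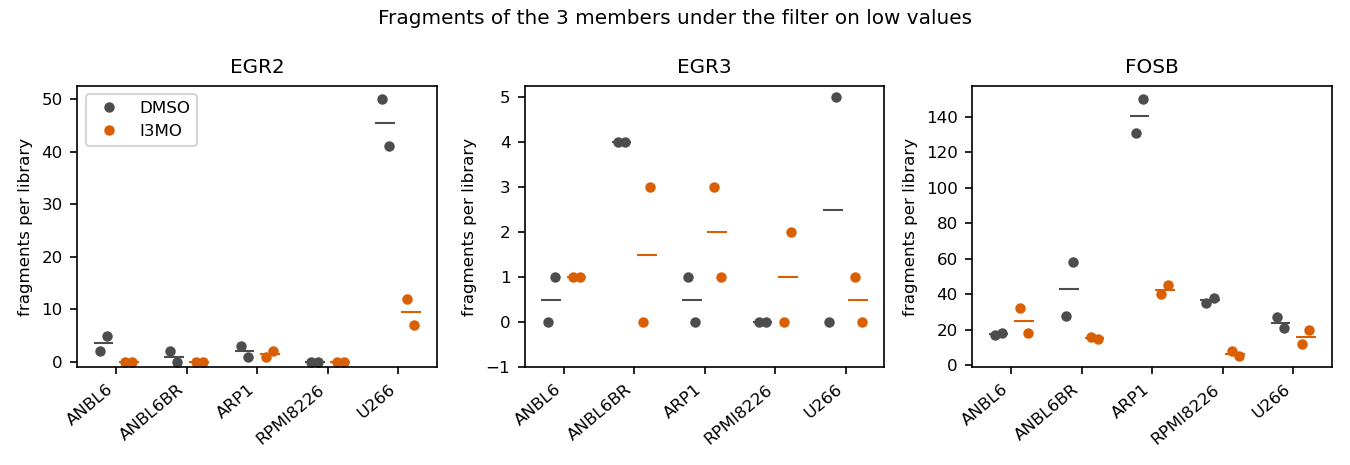
Fragments per library of EGR2, EGR3 and FOSB, the 3 members that stayed under 1 FPKM, by cell line, with DMSO in grey, I3MO in orange and the mean of 2 libraries as a line; the vertical scale differs between panels. EGR2 has 50 and 41 fragments in U266 in DMSO, FOSB has 131 and 150 in ARP1 in DMSO, and EGR3 never exceeds 5.

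The sequences before the start sites are shown for EGR1, FOS, JUNB and FOSL2, which carry the largest differences between I3MO and DMSO among the tested members, and for EGR2. Each is the 250 bases upstream of a RefSeq start (GRCh38.p14), written 5′ to 3′ on the gene's strand, with CArG boxes and the cyclic AMP response element half-site TGACG (or its complement strand, CGTCA) in capitals. The matches were sought on both strands of windows of 300 bases, which include 50 bases after the start, and 8 members had a window searched.
EGR1, chr5:138465229-138465478, + strand: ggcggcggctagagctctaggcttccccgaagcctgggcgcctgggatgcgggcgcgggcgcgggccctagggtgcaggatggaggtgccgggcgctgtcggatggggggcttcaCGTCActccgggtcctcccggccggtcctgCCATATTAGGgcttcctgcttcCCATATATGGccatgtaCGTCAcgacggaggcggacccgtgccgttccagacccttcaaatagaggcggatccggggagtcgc
EGR2, chr10:62816367-62816616, - strand: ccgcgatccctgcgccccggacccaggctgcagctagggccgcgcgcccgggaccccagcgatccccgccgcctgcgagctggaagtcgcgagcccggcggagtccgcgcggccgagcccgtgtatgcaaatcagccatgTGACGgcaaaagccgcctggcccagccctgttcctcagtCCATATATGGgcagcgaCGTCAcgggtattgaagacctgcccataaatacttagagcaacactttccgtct
FOS, chr14:75278578-75278827, + strand: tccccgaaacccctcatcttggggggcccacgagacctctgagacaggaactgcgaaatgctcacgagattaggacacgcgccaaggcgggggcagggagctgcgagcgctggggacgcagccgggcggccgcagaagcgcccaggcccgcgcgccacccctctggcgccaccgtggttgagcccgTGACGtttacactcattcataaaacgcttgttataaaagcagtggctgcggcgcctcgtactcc
JUNB, chr19:12791236-12791485, + strand: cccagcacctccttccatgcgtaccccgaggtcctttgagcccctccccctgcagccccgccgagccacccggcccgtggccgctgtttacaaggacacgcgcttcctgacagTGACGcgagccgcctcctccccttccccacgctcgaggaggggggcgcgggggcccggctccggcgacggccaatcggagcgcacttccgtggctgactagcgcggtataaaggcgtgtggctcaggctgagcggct
FOSL2, chr2:28392608-28392857, + strand: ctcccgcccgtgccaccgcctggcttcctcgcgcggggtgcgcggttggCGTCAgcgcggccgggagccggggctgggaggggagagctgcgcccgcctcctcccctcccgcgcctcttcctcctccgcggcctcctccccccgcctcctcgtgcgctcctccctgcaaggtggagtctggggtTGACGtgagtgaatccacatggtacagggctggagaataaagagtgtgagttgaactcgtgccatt

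A CArG box was found in 1.29% of all 35116 windows of that length. The EGR1 window held 2, beginning at positions -105 and -83 from the start, and 1 of the 3 EGR2 windows held 1, at position -71, close to 2 half-sites that it does not overlap. No other member searched (FOS, FOSB, FOSL2, JUN, JUNB and JUND) had a CArG box in its window. Sequence further upstream was not searched, so a motif missing from a window may still lie in the promoter. FOS, named above as a gene with CArG boxes in its promoter, is therefore not shown to lack them. TGACG occurred in a window of each of the 8 members and in 24.6% of all windows. It stood in EGR1 at -135 and -66, in FOS at -64, in FOSB at -60, in JUN at -123, in JUNB at -137, and in FOSL2 at -201 and -66. In EGR2 it stood at -110 and -54, and in JUND at -200, -197 and -86. The STAT site TTCNNNGAA, in 7.66% of windows, was found in EGR1 at -228 and in no window of the other members searched, JUNB among them. Among the 8 members searched, FOSL2 alone had a match to the AP-1 site TGANTCA, 5 bases after its start, a motif in 7.71% of windows. FOS, FOSB and JUNB held TATAAA, found in 11.5% of windows, at positions -33, -30 and -31. Such matches are letters in a window, and binding was not measured.

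FOS, the partner that JUN proteins need for the classic AP-1 dimer, fell in 3 lines. It reached 1 FPKM in 4 libraries, all in DMSO. The filter therefore let it in only through groups where it was high, which favours falls. The gene lies on chromosome 14 (hg38, 75278774 to 75282230, plus strand). In U266 it stood at 3.89 and 3.84 FPKM in DMSO and 0.463 and 0.446 in I3MO, a log2 difference of -1.74 ± 0.196 SE, adjusted p = 3.73e-05, with tight pairs and no overlap. ANBL6 read 0.789 and 1.3 in DMSO and 0.0781 and 0.0496 in I3MO, a 16.4-fold ratio of the means (-0.93 ± 0.196 SE, adjusted p = 0.0137), again without overlap. The call in ANBL6 was lost without DMSO replicate 2 (-0.75, adjusted p = 0.14 in limma) and without I3MO replicate 2 (-0.91, adjusted p = 0.0944 in limma). Over its 15 alternatives the adjusted p ran from 0.0011 to 0.14 in limma. ANBL6BR read 0.511 and 1.66 in DMSO and 0.34 and 0.145 in I3MO (-0.69 ± 0.196 SE, adjusted p = 0.0275). Here DMSO replicate 2 held most of the difference. That call was lost without DMSO replicate 2 (-0.29), I3MO replicate 1 (-0.81) or I3MO replicate 2 (-0.58). It was also lost without the filter on low values (adjusted p = 0.0754 in limma). Its adjusted p ran from 0.000174 to 0.404 in limma over the 15 alternatives. ARP1 read 0.566 and 0.505 in DMSO and 0.573 and 0.555 in I3MO, and RPMI8226 was low throughout at 0.138 and 0.247 in DMSO and 0.0453 and 0.0839 in I3MO, so neither passed. The FOS responses were unequal over the 5 lines (F = 12.7, adjusted p = 0.00244) and at 10 µM (F = 24.5, adjusted p = 0.000851).

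FOSL2 (also called FRA2), a FOS relative whose protein lacks the strong activating region of FOS, rose in U266 while FOS fell there. The gene lies on chromosome 2 (hg38, 28392448 to 28417312, plus strand). It stood at 4.44 and 4.41 FPKM in DMSO and 22.5 and 25.5 in I3MO in U266, a 5.42-fold ratio of the means and a log2 difference of 2.20 ± 0.12 SE, adjusted p = 9.81e-08. This difference had rank 43 by p among the 15687 tested genes in that line, and it held without any 1 library (2.12 to 2.29). In ARP1 FOSL2 read 0.793 and 0.586 in DMSO and 1.06 and 1.19 in I3MO (0.33 ± 0.12 SE, adjusted p = 0.0459). The groups did not overlap, but the ARP1 call was lost without any 1 of its 4 libraries (differences of 0.24 to 0.42, adjusted p of up to 0.241 in limma) and under both other scalings of the libraries. In limma the adjusted p ran from 0.0265 to 0.637 over its 16 alternatives. In the other lines FOSL2 passed no test with all libraries. It read 0.731 and 0.745 in DMSO and 0.77 and 0.778 in I3MO in ANBL6. RPMI8226 read 1.08 and 1.07 in DMSO and 1.2 and 1.14 in I3MO, and ANBL6BR 0.614 and 1.18 in DMSO and 0.418 and 0.605 in I3MO. Without ANBL6BR DMSO replicate 1, FOSL2 was called lower in ANBL6BR (-0.53, adjusted p = 0.00274 in limma). Of all members, FOSL2 had the largest statistic for unequal responses (F = 69.7, adjusted p = 6.79e-06, and F = 94.7, adjusted p = 7.98e-06 at 10 µM).

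FOSL1 (FRA1) and FOSB completed the FOS family, at low levels in the deposited FPKM. On the merged exon length set out below, FOSL1 averaged 4.75 in DMSO and 6.17 in I3MO in ARP1. FOSL1, on chromosome 11 (hg38, 65892049 to 65900573, minus strand), fell in RPMI8226 from 1.69 and 2.05 to 1.1 and 1.24 FPKM (-0.40 ± 0.0983 SE, adjusted p = 0.0156). The groups did not overlap, but the call was lost without DMSO replicate 2 (-0.31), without I3MO replicate 1 (-0.35) and with 0.1 in place of 1 added (-0.63). Over its 15 alternatives the adjusted p ran from 0.00512 to 0.212 in limma. In ARP1 it read 1.44 and 1.55 in DMSO and 2.18 and 1.71 in I3MO (0.23 ± 0.0983 SE, adjusted p = 0.0842), higher in I3MO without overlap and without a call. Without I3MO replicate 2 it passed (0.35). Its adjusted p ran from 0.0325 to 0.919 in limma over the 16 alternatives. FOSL1 was near 0 in U266, 0.0242 and 0.054 in DMSO and 0.0566 and 0.0204 in I3MO, where FOSL2 was highest. ANBL6 held 0.311 and 0.507 in DMSO and 0.437 and 0.551 in I3MO, and ANBL6BR 0.161 and 0.0927 in DMSO and 0.158 and 0.178 in I3MO, with overlapping groups. FOSB, which like FOS carries a strong activating region, was highest in ARP1, with 131 and 150 fragments in DMSO and 40 and 45 in I3MO. Without the filter it fell there (adjusted p = 0.000716 in limma, and 0.00745 with 0.1 added), although FOS itself did not differ in ARP1 beyond its spread. RPMI8226 showed the same order, 35 and 38 fragments in DMSO and 8 and 5 in I3MO, without a call (adjusted p = 0.188 in limma), and ANBL6BR had 28 and 58 against 16 and 15. The groups overlapped in ANBL6, with 17 and 18 against 32 and 18, and were close in U266, with 27 and 21 against 12 and 20.

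JUNB, the JUN family member that activates fewer AP-1 genes than JUN and can oppose it, was the most abundant member in ANBL6, ANBL6BR and U266 in DMSO, and it fell with I3MO in all 3. The gene lies on chromosome 19 (hg38, 12791496 to 12793315, plus strand), and 14.2% of its exon bases overlap HOOK2 on the opposite strand, so fragments there cannot be assigned to one of them without strand. U266 read 319.5 and 309 FPKM in DMSO and 97 and 77.6 in I3MO (-1.84 ± 0.196 SE, adjusted p = 2.27e-05). ANBL6BR read 228 and 339 in DMSO and 101 and 91.6 in I3MO (-1.52 ± 0.196 SE, adjusted p = 0.000278). In both lines every DMSO library was above every I3MO library by a wide margin, and both calls held without any 1 library. With the spread of the ANBL6BR libraries alone JUNB passed no test there (adjusted p = 0.15 in limma). ANBL6 read 100.1 and 127 in DMSO and 49.6 and 55.3 in I3MO (-1.09 ± 0.196 SE, adjusted p = 0.00602), also without overlap. Its call was lost without DMSO replicate 2 (-0.92). In limma the adjusted p ran from 0.00259 to 0.132 over its 15 alternatives. ARP1 (37.2 and 48.9 in DMSO and 35.2 and 43.2 in I3MO) and RPMI8226 (35.6 and 30.02 in DMSO and 27.3 and 28.1 in I3MO) began lower and passed no test. The JUNB responses were unequal over the 5 lines (F = 15.2, adjusted p = 0.00135) and at 10 µM (F = 24.1, adjusted p = 0.000898).

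JUN, the strongest activator of its family and a gene that its own protein induces, fell in ANBL6BR and U266 and rose in RPMI8226. It lies on chromosome 1 (hg38, 58780788 to 58784327, minus strand). ANBL6BR read 27.1 and 46.4 FPKM in DMSO and 15.4 and 19.5 in I3MO (-0.996 ± 0.182 SE, adjusted p = 0.00264). U266 read 25.7 and 24.9 in DMSO and 16.3 and 13.8 in I3MO (-0.72 ± 0.182 SE, adjusted p = 0.0112), both without overlap. The ANBL6BR call held without any 1 library (-1.37 to -0.62, the former without DMSO replicate 1, the latter without DMSO replicate 2). The U266 call was lost without DMSO replicate 1 (-0.70) or I3MO replicate 2 (-0.60). Over its 15 alternatives the adjusted p ran from 0.00447 to 0.0741 in limma. RPMI8226 moved in the opposite direction, 3.36 and 3.53 in DMSO and 6.62 and 7.4 in I3MO (0.85 ± 0.182 SE, adjusted p = 0.0076). This call was lost without DMSO replicate 1 (0.82) or I3MO replicate 2 (0.78). Its adjusted p ran from 0.0032 to 0.0631 in limma over the 15 alternatives. With the spread of the 4 RPMI8226 libraries alone the JUN call held (adjusted p = 0.0354 in limma). With the spread of their own libraries alone, the JUN calls in ANBL6BR (adjusted p = 0.268 in limma) and U266 (adjusted p = 0.0606 in limma) were lost. ANBL6 (3.9 and 3.67 in DMSO and 2.42 and 2.33 in I3MO) and ARP1 (2.29 and 2.19 in DMSO and 1.77 and 1.7 in I3MO) were lower in I3MO in both libraries without passing the test. JUN responses were unequal over the 5 lines (F = 15.2, adjusted p = 0.00135) and at 10 µM (F = 19.4, adjusted p = 0.00179).

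JUND, known as the steadily expressed member that restrains growth in many cells, was the one tested member whose responses were not called unequal (F = 2.7, adjusted p = 0.133 over 5 lines, and F = 4.64, adjusted p = 0.0722 at 10 µM). The gene lies on chromosome 19 (hg38, 18279760 to 18281622, minus strand). It fell in RPMI8226, 121 and 107 FPKM in DMSO and 63.5 and 64.5 in I3MO (-0.82 ± 0.184 SE, adjusted p = 0.00968). This call was lost without DMSO replicate 1 (-0.74), I3MO replicate 1 (-0.81) or I3MO replicate 2 (-0.83). In limma the adjusted p ran from 0.00452 to 0.0741 over its 15 alternatives. ANBL6 read 38 and 30.8 in DMSO and 20.2 and 23.7 in I3MO (-0.62 ± 0.184 SE, adjusted p = 0.0588), lower in I3MO without overlap and without a call. U266 (122 and 121 in DMSO and 116 and 100.3 in I3MO), ARP1 (67.7 and 60.6 in DMSO and 57 and 62.3 in I3MO) and ANBL6BR (37.7 and 61.8 in DMSO and 38.9 and 34.4 in I3MO) passed no test. Of these only U266 showed no overlap. Without ANBL6BR DMSO replicate 1, JUND passed the test in that line (-0.74, adjusted p = 0.0038 in limma) and in the test over the 5 lines (F = 7.31, and 7.86 without ANBL6BR DMSO replicate 2).

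The make-up of each family was set per length, because the gene length behind the deposited FPKM adds up the exons of all transcripts. That length is 3.08 times the merged exon length for FOS, 5.95 times for FOSB, 3.18 times for FOSL1, 1.93 times for FOSL2 and 1.27 times for JUND, against 1 for JUN, JUNB and EGR1. For EGR2 it is 2.54 times and for EGR3 1.88 times. On the merged length, the FOS family of U266 was 57.1% FOS and 40.9% FOSL2 in DMSO, and 2.93% FOS and 96.4% FOSL2 in I3MO. These are means of 2 libraries, which ranged from 57.0% to 57.2% for FOS in DMSO and from 96.1% to 96.7% for FOSL2 in I3MO. The sum of the family went from 20.9 ± 0.163 to 48.0 ± 3.95 FPKM (SD, n = 2). In ANBL6, FOS went from 51.7% to 5.50% of a family sum that went from 6.16 ± 1.58 to 3.598 ± 0.104, leaving FOSL1 at 43.6% and FOSL2 at 41.5%. FOSL1 was the largest share in ARP1 (51.8% in DMSO, 58.2% in I3MO) and RPMI8226 (65.7% and 59.5%). In the JUN family of U266, JUNB went from 63.6% to 36.4% and JUND from 31.2% to 57.3%, while the sum went from 493.5 ± 8.98 to 239 ± 29.6 FPKM. ANBL6BR went from 74.2% to 60.1% JUNB, and ANBL6 from 70.3% to 63.5%. RPMI8226 and ARP1 were mostly JUND in DMSO, 80.0% and 64.3%, and JUN went from 1.91% to 6.05% in RPMI8226. These shares are descriptions of 2 libraries a group and were not tested. JUN family sums exceeded FOS family sums in every group, and their ratio was smallest in U266 in I3MO (239 against 48.0 FPKM).

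**Figure D4:**
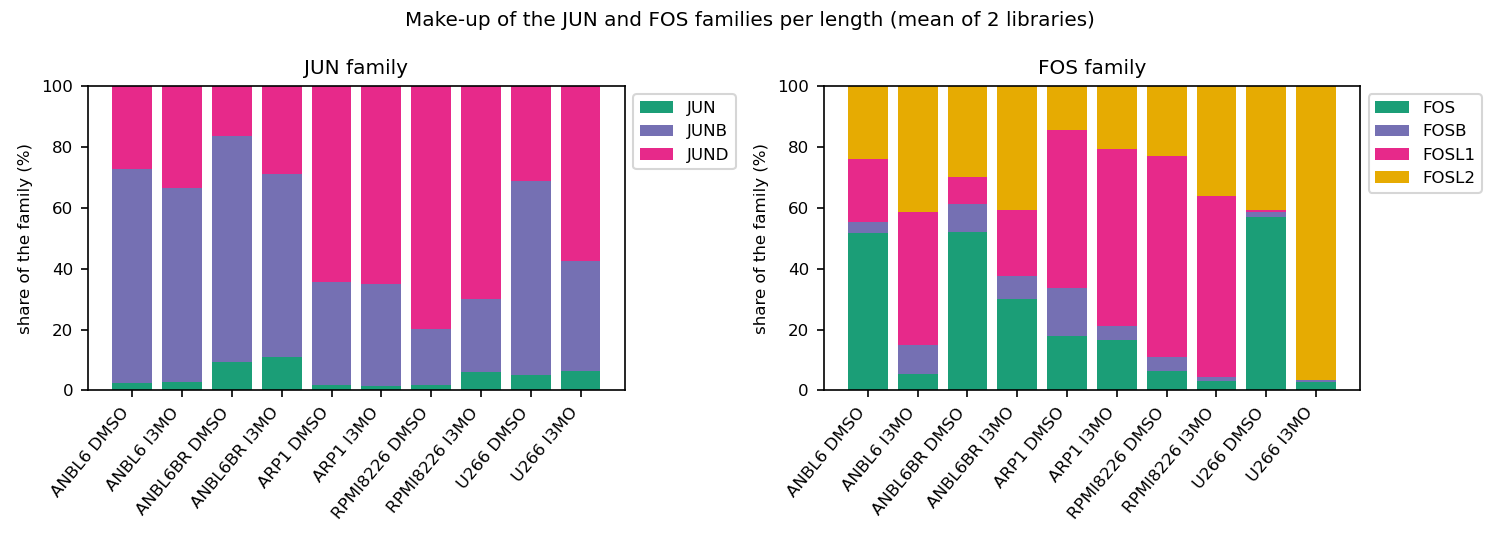
Shares of the JUN family (left) and the FOS family (right) taken by each member in each group, in percent of the summed FPKM on merged exon length, as means of 2 libraries. FOSL2 fills 96.4% of the FOS family in U266 with I3MO against 40.9% in DMSO, and JUNB goes from 63.6% to 36.4% of the JUN family in the same line.

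In DMSO alone, all 7 tested members differed among the 5 lines, where 90.0% of all tested genes did. EGR1 was ordered U266 (mean 174 FPKM), ANBL6BR (14.8), ARP1 (11.8), ANBL6 (3.21) and RPMI8226 (0.627). Of these neighbours, ANBL6BR and ARP1 (adjusted p = 0.962 in limma) and ANBL6 and RPMI8226 (adjusted p = 0.179 in limma) did not differ beyond their spread. In I3MO the order of EGR1 was ARP1 (25.8), ANBL6BR (14.4), U266 (3.75), ANBL6 (0.305) and RPMI8226 (0.125), and only U266 and ANBL6 differed as neighbours (adjusted p = 0.0289 in limma). FOS and FOSL2 were both highest in U266 in DMSO (means of 3.87 and 4.42 FPKM, each above the next line at adjusted p of 8.26e-05 and 4.65e-07 in limma), and the other 4 lines did not differ as neighbours. Further apart in the order, FOS was higher in ANBL6 and in ANBL6BR than in RPMI8226 (adjusted p = 0.00484 and 0.00452 in limma). JUNB was highest in U266 and ANBL6BR (314 and 283), which did not differ from each other (adjusted p = 0.458 in limma). ANBL6 (114) followed, and last came ARP1 (43.1) and RPMI8226 (32.8), which did not differ either (adjusted p = 0.136 in limma). JUN was highest in ANBL6BR (36.8) and U266 (25.3), which differed (adjusted p = 0.0376 in limma). ANBL6 (3.79), RPMI8226 (3.44) and ARP1 (2.24) followed and did not differ as neighbours, but ANBL6 was above ARP1 (adjusted p = 0.0171 in limma). JUND was ordered U266 (122), RPMI8226 (114), ARP1 (64.2), ANBL6BR (49.8) and ANBL6 (34.4), in which U266 and RPMI8226, and ARP1 and ANBL6BR, did not differ as neighbours. FOSL1 had another order, RPMI8226 (1.87) and ARP1 (1.495) above ANBL6 (0.409), ANBL6BR (0.127) and U266 (0.0391).

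The bortezomib-resistant line was compared with its parent in DMSO, where 51.8% of all tested genes were called and 5 of 7 members were. JUN showed the largest difference, 3.9 and 3.67 FPKM in ANBL6 and 27.1 and 46.4 in ANBL6BR (2.93 ± 0.182 SE, adjusted p = 2.75e-08). JUNB was higher too (1.29 ± 0.196 SE, adjusted p = 0.000107), and both calls held without any 1 library. EGR1 was higher (1.93 ± 0.685 SE, adjusted p = 0.0316) but lost its call without ANBL6 DMSO replicate 1 (1.12) or ANBL6BR DMSO replicate 1 (1.17), and also with no filter on low values (adjusted p = 0.0839 in limma). JUND was higher (0.49 ± 0.184 SE, adjusted p = 0.0417) although its groups overlapped, and kept its call in 7 of 14 alternatives (adjusted p from 0.000523 to 0.51 in limma). The call was lost without ANBL6 DMSO replicate 2 (0.34) or ANBL6BR DMSO replicate 2 (0.14), and under both other scalings of the libraries. FOSL1 was lower (-0.32 ± 0.0983 SE, adjusted p = 0.0153), a call lost without ANBL6 DMSO replicate 2 (-0.22) or ANBL6BR DMSO replicate 2 (-0.28) and with quantile normalization (-0.17). FOS and FOSL2 did not pass as fitted with all libraries. Without ANBL6BR DMSO replicate 1, FOS was called higher (0.39, adjusted p = 0.0325 in limma). Without replicate 2 it was called lower (-0.42, adjusted p = 0.0222 in limma), so its direction rests on which ANBL6BR library is used. FOSL2 was called higher without replicate 1 (0.33, adjusted p = 0.0171 in limma). In the ANBL6BR DMSO libraries, JUN, JUNB, JUND, FOS and FOSL2 were all higher in replicate 2 than in replicate 1, and EGR1 was lower.

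Whether the 2 related lines answered I3MO differently was tested as the difference of their responses, where 0 of 7 members and 8.47% of all genes were called in limma. The lowest p of the 7, that of FOSL2, had rank 4105 among the 15687 tested genes. The differences of the responses (ANBL6BR minus ANBL6) ran from -0.49 ± 0.258 (JUN) to 1.16 ± 0.968 (EGR1), SE. They rest on the ANBL6BR DMSO libraries: without replicate 1, FOSL2 (-0.56, adjusted p = 0.0149) and JUN (-0.87, adjusted p = 0.00457) passed in limma, and without replicate 2 only FOS did (0.64, adjusted p = 0.0385 in limma). The comparison of I3MO with DMSO across the 5 lines, which takes the lines as the replicates, called 0.00% of genes and none of the members in limma. The members with the lowest p in limma were JUNB (-0.96 ± 0.268, adjusted p = 0.163), JUND (-0.42 ± 0.133, adjusted p = 0.195) and FOS (-0.70 ± 0.244, adjusted p = 0.224). Their ranks by p among the 15687 tested genes were 786, 1203 and 1593. JUNB and JUND were lower in I3MO by group mean in all 5 lines, and FOS in 4 of 5.

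By the correlation of log2(FPKM + 1) over the 20 libraries, given as a description, JUNB lay closest to SOCS3 (r = 0.939), KIF13B (0.931) and BCL3 (0.927). SOCS3 encodes a feedback inhibitor of cytokine receptors and BCL3 an NF-kB cofactor. JUN lay closest to CLU (r = 0.972), LINC01679 (0.953) and NCDN (0.95), and FOSL2 to UNC5B (0.989), LINC01886 (0.989) and PRSS8 (0.986). EGR1 lay closest to SNX25 (r = 0.907), VAV3 (0.89) and KANK1 (0.887), and FOS to 2 processed pseudogenes and FAM20B (0.867). FOSL1 lay closest to NCS1 (r = 0.963), PRELID2 (0.958) and NCOR1P2 (0.954), and those reported for JUND were EXOSC6 (0.92) and MLLT6 (0.914). Among the members, JUNB and JUN (r = 0.786), EGR1 and FOS (0.784) and JUNB and FOS (0.781) went together, and FOSL1 ran against JUNB (-0.814) and JUN (-0.785). The points share lines and libraries, 4 libraries from each line.

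The genes around the members were read in lists, for which counts are read beside the shares of all genes called above. Of all tested genes, 4.1% rose and 3.87% fell in ANBL6, 10% and 8.4% in ANBL6BR, and 23.1% and 13.9% in ARP1. In RPMI8226 6.19% rose and 8.62% fell, and in U266 10.5% and 15.8%. SRF and NAB2 each stand in 2 lists. Among the factors that act on these promoters (8 of 9 tested), SRF fell in ANBL6BR (-0.84) and U266 (-0.70), and ELK3, a ternary complex factor, fell in U266 (-0.84) and rose in ARP1 (1.08). ELK3 also fell in ANBL6BR (-0.70 to -0.38 with 1 library left out), a call that held in 1 of 4 such fits. In all, 1 of these 8 fell in ANBL6, 2 fell in ANBL6BR, 4 rose and 2 fell in ARP1, 0 passed in RPMI8226 and 1 rose and 3 fell in U266. Of the ERK pathway kinases (10 of 11 tested), 0 passed in ANBL6, 2 rose and 1 fell in ANBL6BR, 2 rose and 4 fell in ARP1, 2 rose and 1 fell in RPMI8226, and 3 rose and 2 fell in U266. RPS6KA2, which encodes a kinase downstream of ERK, rose in ANBL6BR, ARP1, RPMI8226 and U266 (0.50 to 0.83). Kinases act through phosphorylation, which RNA levels do not measure. Among JNK, p38 and ERK5 pathway kinases (8 of 12 tested), 0 passed in ANBL6, 2 fell in ANBL6BR, 4 fell in ARP1, 2 fell in RPMI8226, and 1 rose and 2 fell in U266. Of the bZIP partners of FOS and JUN (10 of 12 tested), 1 fell in ANBL6, 1 rose and 2 fell in ANBL6BR, 3 rose and 1 fell in ARP1, 1 rose and 1 fell in RPMI8226, and 1 rose and 2 fell in U266. MAFF, a small MAF factor, fell in ANBL6BR (-1.38) and ARP1 (-0.95), MAF fell in ANBL6 (-0.96) and RPMI8226 (-1.51), and JDP2, a repressor that pairs with JUN, rose in U266 (1.28). With 1 library left out, the falls of MAFF and MAF in U266 were -0.61 to -0.58 and -0.51 to -0.35. Both calls held in 0 of 4 such fits. JDP2 also rose in ANBL6BR (0.47 to 0.91 with 1 library left out), held in 2 of 4. The corepressor NAB2 rose in ARP1 (0.67), where EGR1 read higher without a call. In U266, where EGR1 fell, NAB2 read 3.77 and 4.14 FPKM in DMSO and 3.53 and 3.58 in I3MO, without a call. Both NAB2 (-0.30) and NAB1 (-0.48) fell in ANBL6BR, calls that held in only 2 (NAB2) and 1 (NAB1) of 4 fits that left out 1 library. A link between EGR1 and NAB2 was not tested.

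Of 24 tested of 26 other immediate early genes, 0 rose and 2 fell in ANBL6 (IER2, -0.67, and the growth inhibitor BTG2, -0.86). These calls held in 2 (IER2) and 1 (BTG2) of 4 fits that left out 1 library. In ANBL6BR 0 rose and 10 fell, led by p by SGK1 (-1.01), the MAP kinase phosphatase DUSP1 (-2.15) and ZFP36 (-1.65), which speeds the decay of short-lived RNAs. In RPMI8226 0 rose and 4 fell (among them BTG2, -1.34, and IER5, -0.98), and in ARP1 5 rose and 4 fell, led by p by CSRNP1 (0.69), TRIB1 (-0.99) and KLF2 (-2.08). The 9 calls of 24 in ARP1 lay near the 37.0% of all tested genes called there. In U266 6 rose and 10 fell: TRIB1 fell (-1.87), while the nuclear receptors NR4A3 (0.86) and NR4A2 (1.21) rose. The list medians were -0.25, -0.28, -0.11, -0.26 and -0.35 in ANBL6, ANBL6BR, ARP1, RPMI8226 and U266. Of the 9 genes of the IL6 and STAT3 list, 0 rose in any line, and 4 fell in ANBL6, 4 in ANBL6BR, 5 in ARP1, 2 in RPMI8226 and 7 in U266. SOCS3, the gene closest to JUNB, fell in ANBL6 (-1.84), ANBL6BR (-2.92) and U266 (-2.07). As SOCS3 was picked for its correlation with JUNB over these libraries, its falls add nothing independent to those of JUNB. The kinase gene PIM2 fell in all 5 lines (-1.77 to -0.32). Among AP-1 target genes (7 of 14 tested), 1 fell in ANBL6 and 1 in ANBL6BR, SPP1 in both (-0.995, held in 2 of 4 fits that left out 1 library, and -2.27, held in 4 of 4), 2 fell in ARP1 and 1 in RPMI8226. In U266 5 of the 7 fell and 0 rose, led by p by the cyclin gene CCND1 (-2.46), the cytokine gene IL6 (-0.62) and the adhesion receptor gene CD44 (-1.05). Among EGR target genes (8 of 11 tested), 0 passed in ANBL6, 2 fell in ANBL6BR, 3 rose and 1 fell in ARP1, 1 rose and 1 fell in RPMI8226. In U266 VEGFA alone passed, upwards (1.10), where EGR1 itself fell. VEGFA also rose in ARP1 (0.85 to 0.87 with 1 library left out), where EGR1 read higher without a call. It rose in RPMI8226 too (0.29 to 0.33 with 1 library left out), a call that held in 0 of 4 such fits. In DMSO, 15 of the 24 other immediate early genes were higher and 2 lower in ANBL6BR than in ANBL6, with a list median of 0.86. Of all tested genes, 27% were higher and 24.8% lower in that comparison.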

How the data were processed

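RNA-seq libraries of 5 human myeloma cell lines (20, in 10 groups named by the labels) were analysed. FPKM for 60483 genes were computed and deposited by the authors. Per the submitters' processing notes, Trimmomatic (versions 0.32 and 0.36), STAR, SAMtools and the build hg38 were used. The counting tool, strand setting and annotation are not given in the sources used here. GENCODE 29 gave symbols, positions and merged exon lengths, and RefSeq gave the start-site windows.

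The members, the lists and the rule for named genes were chosen with earlier results of these data known. The rule names all 10 members, at most 3 genes with the smallest p for each list and comparison, and the 3 genes closest to each tested member, of which 1 is not reported here. SOCS3 in U266 and PIM2 in ARP1 were named after their values were seen.

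A gene was tested if 2 or more libraries reached 1 FPKM, which left 15687. The model in limma 3.58.1 (R 4.3.3) fitted log2(FPKM + 1) by group, used every library for the spread, and let the variance follow the mean level. Adjustment was by Benjamini-Hochberg over the tested genes. The fit was tested on simulated data. Fragment numbers were worked out from the steps in the deposited FPKM, which came out whole to within 0.05 for 100% of values under 20 fragments in single-exon genes; totals were 12.11 to 20.31 M. Alternatives were 0.1 or 0.5 added, no filter or one needing 4 libraries, median-ratio scaling, quantile normalization, no trend, protein-coding genes, a replicate block, the libraries of 1 line, and leaving out each library or line. No filter together with 0.1 added, and a crossed pairing in ARP1, were chosen after seeing the data.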

Additional observations from a re-analysis of the deposited data

Results flagged for a closer look

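The responses of 6 members to I3MO differed between cell lines by a test of the difference itself (limma, joint test of equal responses). Over the 5 lines the statistics were F = 12.0 for EGR1, 12.7 for FOS, 5.85 for FOSL1, 69.7 for FOSL2, 15.2 for JUN and 15.2 for JUNB. Within the 3 lines treated at 10 µM they were F = 22.7 for EGR1, 24.5 for FOS, 10.7 for FOSL1, 94.7 for FOSL2, 19.4 for JUN and 24.1 for JUNB. Groups of 2 libraries are too small to look for a library far from the others. The FOSL1 statistic passed the threshold in 23 of 30 alternatives over the 5 lines (adjusted p of up to 0.209 in limma) and in 19 of 22 within the 3 lines (up to 0.171).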

How the results depend on the processing

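The 4 calls of EGR1, FOS, FOSL2 and JUNB in U266 and those of JUN and JUNB between ANBL6BR and ANBL6 in DMSO kept their direction and their side of the threshold in every alternative run. Over the values of single members, 1386 alternatives changed neither direction nor call, 62 lost a call, 13 gained one and 37 turned the direction. Of the alternatives for listed genes, 1120 changed nothing and 236 lost a call. Causes were not tested, other than the fewer libraries where some were left out. Genes under about 1 FPKM are limited by depth.

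The number of members called was 0 with the libraries of 1 line alone in ANBL6, ANBL6BR and ARP1 (4 libraries in the fit), 0 in ARP1 with median-ratio scaling and with quantile normalization, and 2 there among protein-coding genes. Between ANBL6BR and ANBL6 in DMSO it was 3 with no filter, with quantile normalization, and with no filter and 0.1 added. Leaving out 1 library gave 0 to 2 members in ANBL6, 2 to 5 in ANBL6BR, 0 to 1 in ARP1, 1 to 2 in RPMI8226, 3 to 6 between ANBL6BR and ANBL6 in DMSO, and 0 to 2 for the difference of their responses.

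Directions turned mostly for values near 0. With quantile normalization the values were -0.0212 for FOSL2 in ANBL6, -0.18 for FOS and 0.0532 for JUND in ARP1, 0.0129 for FOSL1 in U266, 0.0217 for FOS between ANBL6BR and ANBL6 in DMSO and 0.0244 for FOSL1 in the difference of responses. With median-ratio scaling FOS in ARP1 was -0.0754. With 0.1 added, with or without the filter, FOSL1 was 0.013 in the difference of responses and 0.0414 across the lines, where it was 0.0019 with 0.5 added and 0.0929 without RPMI8226. Leaving out 1 library, FOSL1 ran from -0.0132 to 0.188 in ANBL6, -0.0261 to 0.0243 in U266, -0.135 to 0.0657 in the difference of responses and -0.029 to 0.017 across the lines. EGR1 ran from -1.58 to 0.929 in ANBL6BR and -0.0922 to 2.42 in the difference of responses. FOS ran from -0.0018 to 0.0554 and JUNB from -0.318 to 0.0651 in ARP1. FOS ran from -0.425 to 0.389 and FOSL2 from -0.106 to 0.329 between ANBL6BR and ANBL6 in DMSO. In the difference of responses FOS ran from -0.17 to 0.644 and JUND from -0.118 to 0.581.

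Deviations of same-numbered libraries correlated at -0.113 (ARP1) to 0.0342 (ANBL6BR) between DMSO and I3MO, and at 0.101 between ANBL6 and ANBL6BR in DMSO. No strong shared deviation was seen, but this cannot show whether same-numbered libraries shared a culture or day. With a replicate block the members called were 1 in ANBL6 (JUNB), 2 in ANBL6BR, 1 in ARP1, 2 in RPMI8226, 5 in U266, 4 between ANBL6BR and ANBL6 in DMSO, 0 in the difference of responses, and 5 and 6 in the tests of unequal responses over 5 and 3 lines. The crossed pairing in ARP1 called 1 member and 5064 genes.

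Over all tested genes, the share of calls that were higher in I3MO was 62.5% in ARP1 (40.8% with median-ratio scaling, 45.9% with quantile normalization), 51.4% in ANBL6 (37.3% with median-ratio scaling) and 40% in U266 (51.4% with quantile normalization). Calls in ANBL6 were 1250, against 4181 with no filter, 456 with the block and 18 with its own libraries alone.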
